A study of Danio rerio with 21 samples.

Results

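The exocrine pancreas makes the enzymes that break down food in the gut, and 10 of its genes were followed here through 21 zebrafish libraries. They were prss1, prss59.1 and prss59.2 (trypsin-type proteases), ctrb1 (chymotrypsinogen), ela2 and ela2l (elastases), cpa1, cpa5 and cpb1 (carboxypeptidases) and amy2a (amylase). They were chosen by name, through their NCBI gene numbers, with earlier results of these data known. All 10 were found among the 26225 genes of the deposited table.

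Acinar cells of the exocrine pancreas store digestive enzymes as inactive precursors in granules and release them into the gut after a meal. Trypsin, once cleaved in the gut lumen, activates the other protease precursors, so trypsinogens stand at the head of the cascade. Zebrafish have no stomach, and their exocrine tissue is spread along the intestine in the mesentery, close to the liver. In a whole fish the RNA of these genes is therefore a readout of how much pancreatic and gut tissue entered the sample as well as of how active its acinar cells were. In such bulk libraries, fewer acinar cells and less enzyme RNA per acinar cell cannot be told apart.

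RNA was taken from whole fish of the AB strain, labelled as wild type and all reared at 28 °C, in 7 groups of 3 libraries. T35D, T45D and T60D fish were held at 35 °C between 25 and 35 days post-fertilization (dpf). T35D fish were sampled at 35 dpf, when the heat ended. T45D and T60D fish were returned to 28 °C and sampled at 45 and 60 dpf. C25D, C35D, C45D and C60D fish stayed at 28 °C and were sampled at 25, 35, 45 and 60 dpf. The study asked what heat does to the transcriptome while the gonads differentiate, and how the fish were fed is not given in the sources used here. Per the study's methods, 5 to 15 fish were collected and about 60 mg of tissue was ground per sample, and how that tissue was taken from heavier fish is not given in the sources used here. Libraries held between 11875436 and 16471158 rounded counts, and all values below are given as deposited FPKM (fragments scaled to gene length and library size) unless another scale is named. The replicates are described as biological, but fish of a group shared a family and a treatment, and p-values measure only the spread between these libraries.

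Several libraries stood apart and touch every comparison below. In T45D-3, T60D-2 and C60D-1 the 10 genes were close to absent. Their counts summed to 158 in T45D-3, 58 in T60D-2 and 54 in C60D-1, against 3943 to 89627 in the other 18 libraries. Of the 30 gene values in these 3 libraries, 13 rested on at most 3 counts and 3 were at 0. None exceeded 3.27 FPKM, which was ela2l in C60D-1, where it gave 31 of the 54 counts. The lowest value of any of the 10 genes in the other 18 libraries was 4.67 FPKM.

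The third library of C45D and that of C60D were also unlike other replicates, because each matched a nearly even blend of the first and the second library of its group. The closest blend took 49% from C45D-1 for C45D-3 and 51% from C60D-1 for C60D-3. Over genes with a mean count of at least 20, the median squared deviation from that blend was 1.27 times sampling noise for C45D-3 and 1.29 times for C60D-3. The same measure lay between 3.37 and 113 in the other 19 libraries. The 10 genes followed the same course, with FPKM in the third library at 0.952 to 1.19 times the mean of the other two in C45D and at 0.881 to 1.22 times in C60D. The means, SDs and fits below still count these libraries as replicates, so where they enter, the spread, the standard errors and the p-values are smaller than 3 separate pools would give. The median fold change of each comparison with C45D or C60D is also given without them.

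**Figure D1:**
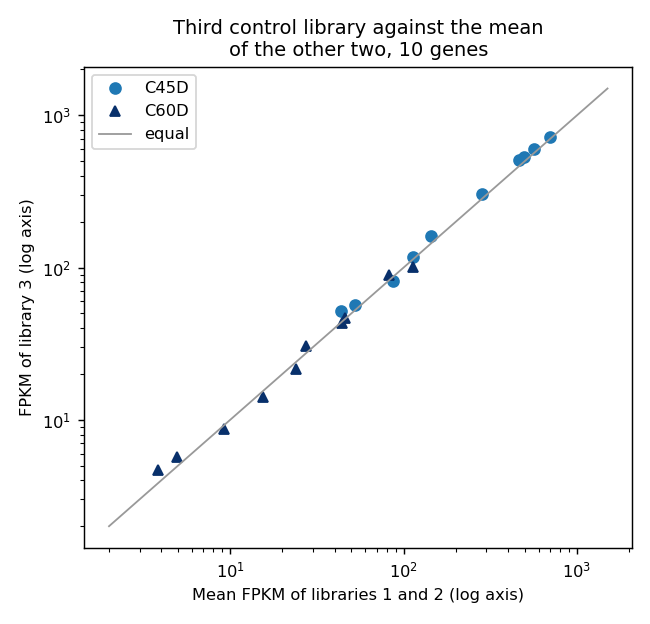
FPKM of the 10 genes in library 3 (vertical, log axis) against the mean FPKM of libraries 1 and 2 of the same group (horizontal, log axis), for C45D (circles) and C60D (triangles), with the line of equality. All points lie close to the line, between 0.881 and 1.22 times the mean.

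All 3 C60D libraries also lacked liver RNA. fabp10a, the liver fatty acid binding protein, was at 5.31, 2.69 and 0.99 FPKM in C60D, against 4420, 7793 and 5589 FPKM in C45D. T45D-3 and T60D-2 likewise had 1.73 and 7.13 FPKM of this gene. Skeletal muscle RNA was present in every library, at 7.19 to 36.1% of counts over 21 fast muscle genes. For C60D, T45D-3 and T60D-2 the liver markers are thus nearly absent, against the label of whole fish.

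Where the enzymes were expressed, their order was steady. prss1 had the highest FPKM of the 10 genes in 16 of the 18 libraries, and prss59.2 led in C45D-1 and T60D-3. As a share of the summed FPKM of the 10 genes, the median over 18 libraries was 23.0% for prss1 and 18.01% for prss59.2. It was 13.8% for ctrb1, 12.5% for prss59.1 and 11.8% for ela2l. Next came cpa5 with 5.89%, ela2 with 5.73% and cpb1 with 3.86%. amy2a with 1.51% and cpa1 with 1.44% were last, at the ninth or the tenth place in every one of the 18 libraries. Neighbours in this order overlapped: ctrb1 ranged from 9.39 to 18.1%, prss59.1 from 4.64 to 17.0% and ela2l from 9.30 to 18.5%.

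**Figure D2:**
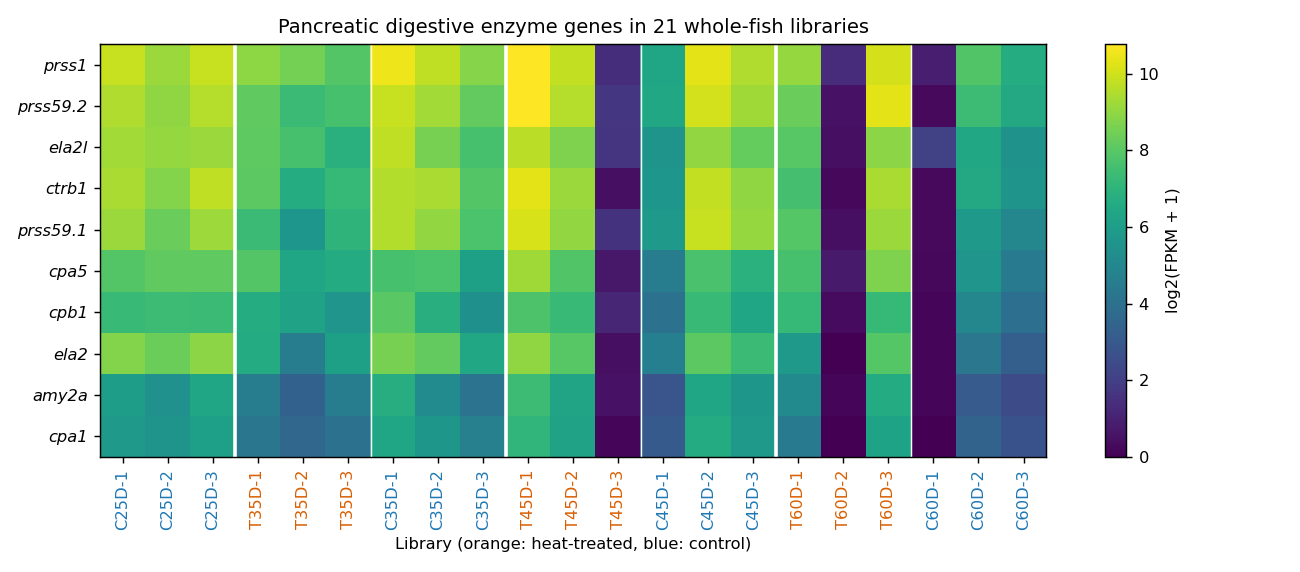
Level of the 10 genes (rows, ordered by median) in the 21 libraries (columns), as log2(FPKM + 1) on a colour scale. T45D-3, T60D-2 and C60D-1 are dark in every row, with no value above 3.27 FPKM, and T45D-1 is brightest for 8 of the 10 genes.

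The trypsin-type genes gave the largest part of this RNA. prss1, a trypsinogen, was at 943, 565 and 926 FPKM in C25D. At 35 dpf it was at 487, 373 and 236 FPKM in T35D, against 1472, 861 and 452 FPKM in C35D. The T35D values overlapped the C35D values by a single library, since T35D-1 exceeded C35D-3. At 45 dpf prss1 was at 1758, 893 and 1.67 FPKM in T45D, against 80.9, 1310.4 and 721 FPKM in C45D. At 60 dpf it was at 539.8, 1.59 and 1085 FPKM in T60D, against 0.86, 227 and 100.4 FPKM in C60D. In each of these older groups the libraries ranged widely, and heat-treated and control values overlapped.

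prss59.1 and prss59.2 encode trypsin-like proteases and are named as tandem duplicates, and no other protein-coding gene lies between them in the RefSeq order of the GRCz12tu assembly. Their estimated counts were not whole numbers in 17 of the 21 libraries, whereas those of prss1, ctrb1, the carboxypeptidases, amy2a and the elastases were whole in all 21. Reads that fit both duplicates had been divided between them, so the balance of the pair is less certain than its sum. prss59.1 was at 162, 50.1 and 128 FPKM in T35D, against 737, 525 and 210.5 FPKM in C35D. Every T35D library lay below every C35D library. prss59.2 was at 284, 161 and 196 FPKM in T35D, against 945, 617 and 289 FPKM in C35D, again with no overlap, although T35D-1 and C35D-3 nearly met. As a pair the genes took 23.0, 19.6 and 30.1% of the summed FPKM of the 10 genes in T35D, against 29.1, 30.5 and 30.8% in C35D.

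ctrb1, which encodes chymotrypsinogen, a protease precursor cut open by trypsin, averaged 172 ± 83.2 FPKM in T35D and 551 ± 275 FPKM in C35D (SD, n = 3 each). Single libraries were at 264, 102 and 149.9 FPKM in T35D, against 747, 671 and 237 FPKM in C35D, so T35D-1 lay above C35D-3. At 45 dpf the gene was at 1296, 575 and 0.37 FPKM in T45D, against 50.3, 879 and 505 FPKM in C45D. These groups overlapped from end to end.

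ela2 and ela2l encode elastases, proteases that cut elastin and other proteins rich in small residues, and are also next to each other in the GRCz12tu order. ela2 had the widest range of the 10 genes, with 58.8-fold between T45D-1 at 509 FPKM and C60D-3 at 8.66 FPKM. Over the same 18 libraries the range of the other 9 genes was between 18.2-fold for cpb1 and 36.6-fold for prss59.1. ela2 was at 98.1, 21.9 and 69.3 FPKM in T35D, against 377, 294 and 87.4 FPKM in C35D, with an overlap of T35D-1 and C35D-3. ela2l was at 274, 200.1 and 114 FPKM in T35D, against 853, 374 and 198 FPKM in C35D, where T35D-1 and T35D-2 both exceeded C35D-3.

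Carboxypeptidases trim residues from the end of the peptides that the other proteases release, cpb1 those with a basic end and the A-type enzymes those with other ends. cpa1 was at 18.04, 10.7 and 15.2 FPKM in T35D, against 78.8, 50.6 and 24.6 FPKM in C35D, without overlap. Its neighbour cpa5, with no protein-coding gene between the pair, did not separate the groups at this age. cpa5 was at 234, 79.6 and 99.1 FPKM in T35D, against 200.2, 209 and 68.1 FPKM in C35D, and T35D-1 was the highest library of the 6. cpb1 was at 101.4, 73.8 and 48.0 FPKM in T35D, against 257, 109 and 41.8 FPKM in C35D, and all 3 T35D libraries exceeded C35D-3.

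amy2a encodes alpha-amylase, which splits starch. The gene was at 22.6, 9.10 and 22.0 FPKM in T35D, against 104, 36.3 and 16.4 FPKM in C35D, so that C35D-3 was below 2 of the T35D libraries. At 60 dpf amy2a was at 34.5, 0.13 and 97.9 FPKM in T60D, against 0.11, 7.57 and 4.67 FPKM in C60D. T60D-1 and T60D-3 were above all C60D libraries, and T60D-2 was among the lowest.

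Heat and control were compared at each age with edgeR's quasi-likelihood test over all genes that passed its filter on low counts. Directly after the heat, all 10 genes had a log2 fold change below 0 in T35D relative to C35D, between -2.03 for prss59.1 and -0.10 for cpa5. Their median was -1.49, whereas the median of all 20208 genes tested was 0.27. None passed the threshold of 0.05 on the Benjamini-Hochberg adjusted p, and the same was true of 0% of all genes in either direction. The smallest adjusted p among the 10 in edgeR was 0.192, which was also the smallest of all genes tested. At an unadjusted p of 0.05, edgeR placed 5 of the 10 lower in T35D (prss59.1, prss59.2, ctrb1, cpa1 and ela2), against 8.33% of all genes. The groups did not overlap, with T35D lower, for 3 genes (prss59.1, prss59.2 and cpa1), against 14.2% of all genes.

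Other settings made few calls at 35 dpf. DESeq2 called prss59.1 lower in T35D, with a log2 fold change of -2.12 ± 0.72 (SE) and an adjusted p of 0.0450, where it called 2.39% of all genes lower, and it placed 7 of the 10 lower at an unadjusted p of 0.05, against 8.14% of all genes. In edgeR without T35D-1, ctrb1 was called, at -2.16 ± 0.66 (SE) and an adjusted p of 0.0495, in a fit that called 2690 genes lower and 3952 higher. Leaving out C35D-1 moved the median of the 10 genes to -0.76, and leaving out C35D-3 moved it to -2.02. cpa5 stood at 0.24 without C35D-1, 0.17 without T35D-2 and 0.06 without T35D-3, so its sign was not settled, and cpb1 stood at 0.17 without C35D-1.

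At 45 dpf, 10 days after the heat ended, no member passed the adjusted threshold in edgeR either, as 0% of all genes did, and the spread was wider. All 10 log2 fold changes lay above 0 in T45D relative to C45D, with a median of 1.02 (all 20125 genes, 0.12) and a range between 0.62 for prss59.1 and 1.80 for cpa5. Standard errors were between 1.36 for cpb1 and 1.79 for ctrb1, larger than the fold change itself for every gene but cpa5. The smallest adjusted p in edgeR was 0.573. Neither edgeR nor DESeq2 placed any of the 10 past an unadjusted p of 0.05, where edgeR placed 5.26% and DESeq2 6.9% of all genes higher in T45D. After adjustment DESeq2 called 0.611% of all genes higher and none of the 10. Without T45D-1, the library with the highest summed FPKM of the 21, the median of the 10 was -0.15. It was 1.68 without T45D-3, where the enzymes were near 0, and 1.08 without the blended C45D-3.

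At 60 dpf the 10 log2 fold changes of T60D relative to C60D were again all above 0, between 2.00 for prss1 and 3.18 for ela2. Their median was 2.40, and that of all 18653 genes tested was -0.02. None passed the adjusted threshold in edgeR, which called 0% of all genes, or in DESeq2, which called 9.76% higher. The smallest adjusted p of the 10 in edgeR was 0.318. edgeR placed none of the 10 past an unadjusted p of 0.05, where 16.1% of all genes were placed higher in T60D, and DESeq2 placed amy2a alone, against 18% of all genes. Both groups held a library near 0, T60D-2 and C60D-1. With both left out, the median of the 10 was 2.68, and the smallest adjusted p in edgeR was 0.126 with 2 libraries in each group. The controls left were C60D-2 and the blended C60D-3, whose closest blend took 51% from C60D-1. They are thus not separate replicates, and C60D-1 still enters this fit through C60D-3. Leaving out T60D-3 lowered the median to 1.26, leaving out C60D-2 raised it to 3.65, and without the blended C60D-3 it was 2.24.

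**Figure D3:**
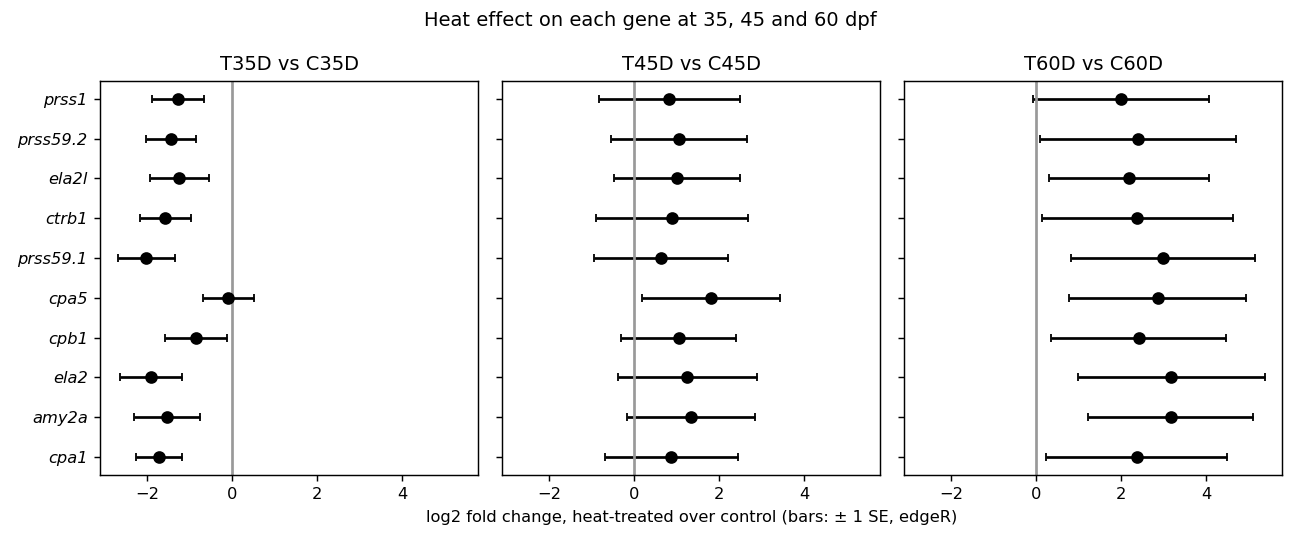
Log2 fold change of each gene, heat-treated over control, at 35, 45 and 60 dpf (points) with ± 1 standard error from edgeR (bars) and a line at 0. All 10 points lie below 0 at 35 dpf and above 0 at 45 and 60 dpf, and the bars are widest at 60 dpf, where both groups hold a library with almost no enzyme RNA.

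The change of sign between ages was tested directly as a difference of 2 heat effects over 18 libraries. The median difference over the 10 genes was 2.68 on the log2 scale for 45 against 35 dpf, 4.07 for 60 against 35 dpf and 1.42 for 60 against 45 dpf. With 1 library left out at a time, these medians ranged from 1.03 to 3.33, from 2.63 to 5.45 and from 0.03 to 2.92 in the same order. No member passed the adjusted threshold in any of the 3 tests, where 0% of all genes were called higher, and none passed at an unadjusted p of 0.05 in edgeR (DESeq2 was not run on these). At that p, edgeR placed 3.4% of all genes higher in the comparison of 45 with 35 dpf, 7.35% in that of 60 with 35 dpf and 11.6% in that of 60 with 45 dpf. The smallest adjusted p of the 10 genes was 0.687, 0.529 and 0.723 in the same order. A difference between the heat effects at different ages was therefore not detectable at this spread. The tests at 35, 45 and 60 dpf share no library, but each difference reuses the libraries of its 2 ages.

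Without heat, the enzymes at 35 dpf were not separated from those at 25 dpf. In C35D relative to C25D, 6 log2 fold changes lay above 0 and 4 below, with a median of 0.05, between -0.56 for cpa5 and 0.44 for prss1. prss1 averaged 928 ± 513 FPKM in C35D and 811 ± 213 FPKM in C25D (SD, n = 3 each). No member passed the adjusted threshold in edgeR or DESeq2, or an unadjusted p of 0.05 in either, where edgeR called 0.181% of all genes higher and 0.0538% lower after adjustment, and DESeq2 4.77% and 5.63%. At the unadjusted p, edgeR placed 13.6% of all genes higher and 12.7% lower, and DESeq2 10.1% and 11.7%. The median turned to -0.27 with the replicate number as a block, to -0.80 without C35D-1 and to -0.05 without C25D-2. Without C35D-1, ela2l was called lower in edgeR, at -1.04 ± 0.22 (SE) and an adjusted p of 0.0469, in a fit that called 657 genes lower and 461 higher.

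In C45D relative to C35D all 10 genes lay below 0, with a median of -0.65, and none passed the adjusted threshold or an unadjusted p of 0.05 in edgeR or DESeq2, where edgeR called 3.55% and DESeq2 6.52% of all genes lower after adjustment, and 13.7% and 11.1% at the unadjusted p. The median was 0.08 without C35D-1 and -0.15 without C45D-1, so it rested on these libraries, and -0.78 without the blended C45D-3. prss1 averaged 704 ± 615 FPKM in C45D and 928 ± 513 FPKM in C35D.

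The lowest control level was at 60 dpf. prss1 averaged 109 ± 113 FPKM in C60D and 704 ± 615 FPKM in C45D. All 10 log2 fold changes of C60D relative to C45D lay below 0, with a median of -2.39, between -3.47 for prss59.1 and -1.62 for cpa5. None passed the adjusted threshold in edgeR, which called 18.2% of all genes lower, or in DESeq2, which called 15.8% lower. At an unadjusted p of 0.05, edgeR placed ela2 lower and DESeq2 placed 2 genes lower, against 23.7% of all genes in edgeR and 19.6% in DESeq2. With the replicate number as a block, edgeR called 5 genes lower in C60D: prss59.1 at -4.36, ela2 at -4.08, amy2a at -3.34, cpa1 at -3.34 and ela2l at -2.67, with adjusted p between 0.0241 and 0.0485. That fit calls 2736 genes lower, and both groups contain the third library that matches a blend of the other two, so the block is not an independent check. Left-out libraries put the median between -3.60 (without C60D-2) and -1.75 (without C45D-2), with -2.30 without the blended C45D-3 and -2.25 without C60D-3.

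At 35 dpf most liver and intestinal genes, like the enzymes, had a fold change below 0 in T35D. The 10 genes took 0.169, 0.0950 and 0.0912% of counts in T35D, against 0.475, 0.300 and 0.129% in C35D. The 18 liver genes took 1.90, 0.494 and 0.390% of counts in T35D, against 2.89, 3.43 and 3.02% in C35D, and all 18 had a log2 fold change below 0, with a median of -1.79. The 32 intestinal lining genes took 1.23, 0.423 and 0.461% in T35D, against 1.85, 1.48 and 1.26% in C35D, and 29 of them lay below 0, with a median of -1.08. The defining markers were present in all 6 libraries, with fabp2, an enterocyte fatty acid binding protein, at 685 to 2751 FPKM in T35D and 2075 to 2903 FPKM in C35D. Oocyte genes ran the other way at 0.00932, 3.00 and 2.11% of counts in T35D, against 0.0751, 0.379 and 0.0160% in C35D, and T35D-2 and T35D-3 were the libraries lowest in the enzymes. Endocrine pancreas genes were mixed, with 5 of 12 tested above 0 and 7 below, and a median of -0.08. None of these lists held a gene past the adjusted threshold in edgeR. DESeq2 called 9 liver and 3 intestinal genes lower in T35D, and 7 oocyte genes and insb of the endocrine list higher. Of all 25867 genes it called 2.39% lower and 1051 genes higher. insb was at 0.24, 10.8 and 5.14 FPKM in T35D, against 0.11, 0.55 and 0.18 FPKM in C35D. Its higher values lay in T35D-2 and T35D-3, the libraries high in oocyte genes. The part of these lists in the enzyme result was not tested.

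At 45 and 60 dpf the libraries near 0 for the enzymes were near 0 for the neighbouring organs too. In T45D-3 the intestinal genes took 0.00456% and the liver genes 0.00158% of counts. In the other T45D libraries the intestinal genes took 0.795 and 1.07%, and the liver genes 1.39 and 2.58%. T60D-2 had 0.0502% for intestine and 0.00149% for liver, and C60D-1 had 0.00931% and 0.000925%. Fast muscle genes took 36.1% of counts in T45D-3, which was the highest of the 21 libraries. The organs did not always part together, however. C60D-2 held 227 FPKM of prss1 and 1591 FPKM of fabp6, the ileal bile acid binding protein, beside 12.1 FPKM of fabp2, 2.49 FPKM of apoa4b.1 (an apolipoprotein of the absorbing gut) and 2.69 FPKM of fabp10a. The blended C60D-3 showed the same pattern at a lower level, with 708 FPKM of fabp6 and 7.95 FPKM of fabp2.

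Fold changes of the organ lists at these ages did not all run with the enzymes. In T45D relative to C45D, 28 of 32 intestinal genes lay above 0, with a median of 1.02, but 13 of 18 liver genes lay below 0, with a median of -0.39. In T60D relative to C60D the 11 liver genes that could be tested all lay above 0, with a median of 9.52, against 2.40 for the enzymes. Of 21 tested intestinal genes, 15 lay above 0, with a median of 3.08. Of 13 endocrine pancreas genes tested at 45 dpf, 9 lay below 0, with a median of -0.50. At 60 dpf 3 of 4 tested lay above 0, with a median of 1.67. edgeR called none of these after adjustment at either age. DESeq2 called dab2, an endocytic adaptor, higher at 45 dpf, and pax6b, isl1 and insm1a of the endocrine list lower. The defining endocrine markers ins and gcga were not called and overlapped between these groups. ins was at 78.6, 6.64 and 0 FPKM in T45D, against 0.66, 73.5 and 35.5 FPKM in C45D. gcga was at 11.85, 3.05 and 0.46 FPKM in T45D, against 0.51, 8.74 and 4.9 FPKM in C45D. dab2 was at 19.2, 172 and 1.03 FPKM in T45D, against 2.97, 8.32 and 5.51 FPKM in C45D. Its highest value lay in T45D-2, the T45D library high in oocyte genes, and T45D-3 was below every C45D library. At 60 dpf DESeq2 called all 18 liver genes, 15 intestinal genes and 6 endocrine genes higher, and alpi.1, an alkaline phosphatase, lower. Of all genes it called 9.76% higher in T60D. Reproductive genes were unevenly spread, and DESeq2 called 16 of 19 oocyte genes higher in T60D. Oocyte genes took 0.00318, 1.898 and 0.00253% of counts in T45D, against 0.00484 to 0.00708% in C45D, and 0.00582, 1.195 and 1.27% in T60D, against 0.00119 to 0.00491% in C60D. Genes of vitellogenin, the yolk precursor made by the liver of females, took 6.66% of counts in T60D-3, where prss1 was highest among the T60D libraries, and at most 0.00332% in each of the other 20 libraries. The part of these organs in the enzyme result was not tested.

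**Figure D4:**
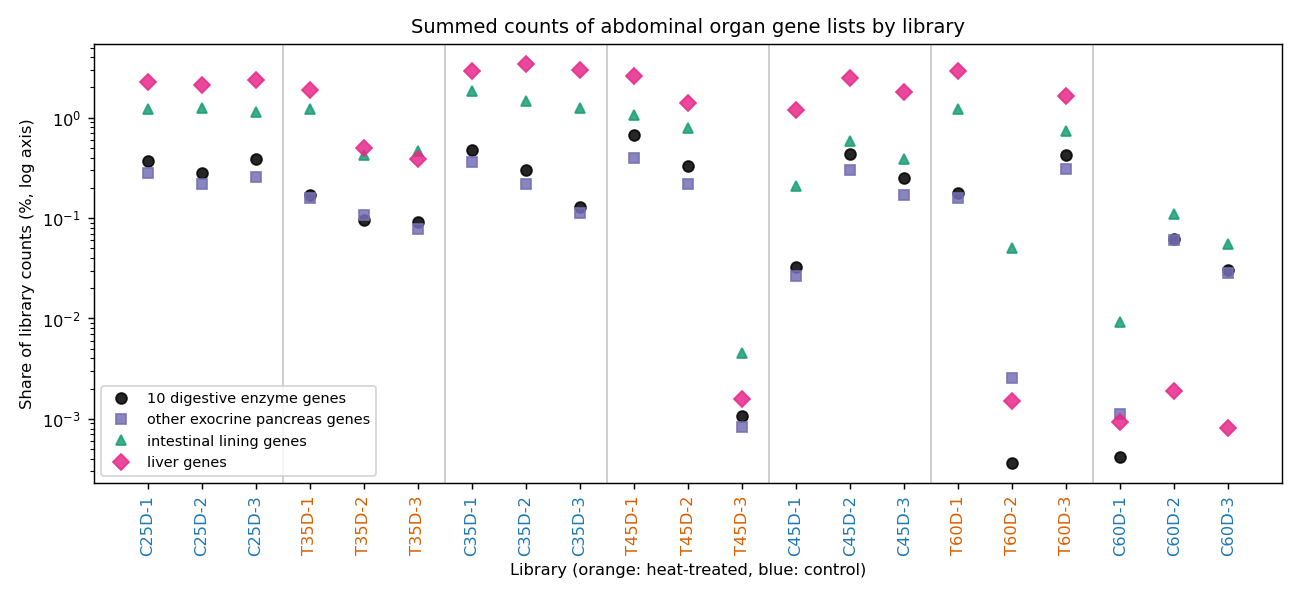
Share of library counts (%, log axis) taken by the 10 digestive enzyme genes, 24 other exocrine pancreas genes, 32 intestinal lining genes and 18 liver genes in each of the 21 libraries. Enzyme and other exocrine genes run close together, enzymes and liver genes are near 0 in T45D-3, T60D-2 and C60D-1, and liver genes are also near 0 in C60D-2 and C60D-3, where the enzymes are not.

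Per count of intestinal genes, the enzymes stood at 0.137, 0.224 and 0.198 in T35D, against 0.257, 0.203 and 0.103 in C35D, and these ranges overlapped. Per count of liver genes they stood at 0.0888, 0.192 and 0.234 in T35D, against 0.164, 0.0873 and 0.0429 in C35D, where T35D-2 and T35D-3 were highest. On neither scale did T35D lie apart below C35D. At 45 dpf the count per intestinal count was 0.627, 0.414 and 0.232 in T45D, against 0.156, 0.754 and 0.645 in C45D. At 60 dpf it was 0.147, 0.00727 and 0.582 in T60D, against 0.0451, 0.555 and 0.544 in C60D. Neither pair of groups separated on the intestinal scale. Per count of liver genes the groups did separate, in opposite directions at the later ages. The enzymes stood at 0.261, 0.237 and 0.672 in T45D, against 0.0273, 0.178 and 0.140 in C45D, with every T45D library higher. They stood at 0.0608, 0.245 and 0.258 in T60D, against 0.454, 32.05 and 36.9 in C60D, with every T60D library lower. Liver RNA was nearly absent from C60D, T45D-3 and T60D-2, so the ratios of these libraries have a divisor near 0.

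The 24 other exocrine genes that could be matched gave values like those of the 10. In T35D relative to C35D, 21 of 23 tested lay below 0 with a median of -1.11. At an unadjusted p of 0.05, edgeR placed 9 lower, against 8.33% of all genes. Among the 9 was cel.2, a lipase activated by bile salts, at -1.74 ± 0.64 (SE). None was called after adjustment in edgeR, where DESeq2 called 1. In T45D relative to C45D, 20 of 24 lay above 0 with a median of 0.70, and in T60D relative to C60D, 22 of 23 with a median of 2.16. Here too edgeR called none after adjustment, while DESeq2 called 1 gene higher and 1 lower at 60 dpf. The 2 genes were amy2al1 (higher, at 4.42 ± 0.84) and prss60.2 (lower). prss60.2, a serine protease gene, lay below 0 with the rest at 35 dpf, at -1.86 ± 0.76 in edgeR, but departed from them at the later ages, at -1.68 ± 0.48 at 45 dpf and -2.40 ± 0.63 at 60 dpf (log2 fold change and SE, heat over control).

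Regulators of acinar cells and secretion genes were mixed. ptf1a, the transcription factor that defines the acinar lineage, was at 1.4, 1.01 and 0.63 FPKM in T35D, against 2.05, 1.80 and 1.12 FPKM in C35D, with a log2 fold change of -0.59 ± 0.55 (SE). It was listed at 0 in T45D-3, T60D-2 and C60D-1. Of the 14 regulator and secretion genes, edgeR tested 11 at 35 dpf, of which 5 lay above 0 and 6 below, with a median of -0.17 and none called after adjustment. DESeq2 tested all 14, of which 5 lay above 0 and 9 below, with a median of -1.05. It called 1 gene lower in T35D, nr5a2, a nuclear receptor of acinar and other endoderm cells, at -2.07 ± 0.60 (SE) and an adjusted p of 0.0236, and 1 higher, cckar, at 3.76 ± 1.03 (SE) and an adjusted p of 0.0170. cckar encodes the cholecystokinin receptor through which a meal triggers enzyme release in mammals. cckar was at 0.41, 22.96 and 8.31 FPKM in T35D, against 0.63, 1.56 and 0.40 FPKM in C35D, high in the libraries that were also high in oocyte genes. In edgeR nr5a2 stood at -1.96 ± 0.53 and cckar at 3.91 ± 1.245. At 60 dpf DESeq2 called gata6 and xbp1 higher in T60D, and at 45 dpf cpe lower in T45D.

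Genes of appetite and of short food supply were read as background on feeding. Only 8 of 18 feeding signal genes had enough counts to be tested at 35 dpf, 9 at 45 dpf and 3 at 60 dpf, and none passed after adjustment in edgeR. DESeq2, which tested 17, 18 and 17 of them, called pyyb lower at 35 dpf, cart3 lower at 45 dpf, and npy, ccka, pyyb and galn higher at 60 dpf. The genes called at 60 dpf were near the floor in every C60D library, at 0.43 FPKM or less. In T60D-2, npy, ccka and pyyb were also low, at 0.43, 0.49 and 0.12 FPKM, and galn was at 1.39 FPKM. The part of tissue content in these calls was not tested. ccka, the gut hormone cholecystokinin released by food, was at 7.36, 4.06 and 0.66 FPKM in T35D, against 4.10, 7.24 and 4.38 FPKM in C35D. pyyb, a peptide of the gut and pancreas that slows feeding in mammals, was at 7.63, 10.5 and 1.95 FPKM in T35D, against 28.9, 28.5 and 28.5 FPKM in C35D, without overlap and at -1.96 ± 0.63 (SE). Of 17 genes that respond to food restriction, 4 lay above 0 and 13 below at 35 dpf, with a median of -0.20. pck1, a gluconeogenic enzyme raised by fasting in mammals, was at 96.9, 49.9 and 30.3 FPKM in T35D, against 29.5, 64.2 and 20.2 FPKM in C35D, and overlapped. fbxo32, a muscle atrophy ligase, was at 1.93, 32.7 and 83.9 FPKM in T35D, against 2.44, 6.83 and 1.67 FPKM in C35D, high in the same 2 libraries as the oocyte genes. It was the only food restriction gene that DESeq2 called at 35 dpf, at 3.72 ± 1.02 (SE) and an adjusted p of 0.0170.

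At the later ages the food restriction genes did not keep 1 direction. In T45D relative to C45D, 13 of 16 tested lay above 0, with a median of 0.71. At an unadjusted p of 0.05, edgeR placed 6 higher, against 5.26% of all genes. In T60D relative to C60D, 11 of 16 lay below 0, with a median of -1.08. At that p, 7 were lower and 1 higher. edgeR placed 16.1% of all genes higher there, and the share of all genes lower is not given here, so the 7 cannot be set against it. None passed after adjustment in edgeR. DESeq2 called pdk2b and eif4ebp3l higher at 45 dpf. At 60 dpf it called trim63a, trim63b, pdk2b, cpt1b and sesn1 lower and pck1 higher. The pck1 call rested mainly on T60D-1. pck1 was at 15.0, 0.10 and 0.67 FPKM in T60D, against 0.32, 0.30 and 0.28 FPKM in C60D, so T60D-2 lay below every control. pdk2b, a kinase that restrains the use of pyruvate, stood at 2.05 ± 0.64 in T45D and at -2.65 ± 0.44 in T60D (log2 fold change and SE, DESeq2, heat over control).

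Within the summed FPKM of the 10 genes, which takes out the amount of pancreas in a library, the mix was not the same in every group. This was read in the 18 libraries with more than 1000 counts of the 10 genes, as a description without a test. cpa5 took 12.04, 7.36 and 9.20% in T35D, against 3.47, 5.57 and 4.19% in C35D. Its share was 7.16 and 5.86% in T45D-1 and T45D-2, against 5.69, 3.70 and 3.76% in C45D. In T60D-1 and T60D-3 it was 9.99 and 8.20%, against 6.50 and 5.85% in C60D-2 and its blend C60D-3. C60D-1, the other part of that blend, held almost none of this RNA, so the control mix at 60 dpf rested on C60D-2. In cpa5 share the heat-treated libraries were thus above the controls of their age at each of the 3 ages, by a narrow margin at 45 dpf. Such separation was not particular to cpa5. Of the 10 genes, cpa5 included, heat-treated shares lay apart above the controls for 1 at 35 dpf, 2 at 45 dpf and 4 at 60 dpf. They lay apart below for 1 gene at each age. These counts rest on 3 heat-treated and 3 control libraries at 35 dpf, 2 and 3 at 45 dpf, and 2 and 2 at 60 dpf. Smaller groups lie apart more easily, as do groups with a blended library, so the counts cannot be compared between ages. Shares of this sum exist only for the 10 genes. No share of all genes can therefore be set beside the counts, and no result is read from them. Shares of the same sum also depend on each other. amy2a was higher at 45 and 60 dpf, and prss59.1 was lower at 35 and 45 dpf but higher at 60 dpf. C25D fish, before any heat, had cpa5 shares of 5.25, 8.73 and 5.91%, which overlap the heat-treated ones. Over all ages, cpa5 ranged from 5.86 to 12.04% in 7 heat-treated libraries and from 3.47 to 6.50% in 8 controls of 35 to 60 dpf, so the pooled ranges met. The blended C45D-3 and C60D-3 are among these controls.

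The cpa1 share overlapped between heat-treated and control libraries at 35, 45 and 60 dpf. The ratio of cpa1 to cpa5, neighbouring genes of the same enzyme family, has cpa5 as its divisor and so mostly restates the cpa5 share. It was 0.0770 to 0.153 in T35D, against 0.243 to 0.393 in C35D. At 45 dpf it was 0.226 to 0.319 in T45D, against 0.324 to 0.484 in C45D with its blended C45D-3. At 60 dpf it was 0.105 to 0.179 in T60D, against 0.206 to 0.264 in C60D-2 and its blend C60D-3. In C25D it was 0.168 to 0.233.

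The ela2 share differed by age in these libraries. In control fish it took 9.68 to 10.2% at 25 dpf, 5.38 to 7.85% at 35 dpf, 4.82 to 6.21% at 45 dpf and 2.37 to 2.49% at 60 dpf, where only C60D-2 and its blend C60D-3 could be read. Its ratio to ela2l was 0.608 to 0.828 in C25D and 0.199 to 0.216 in C60D. In heat-treated fish the ela2 share was 2.02 to 6.43% in T35D, 6.08 to 6.29% in T45D and 2.70 to 4.799% in T60D. T35D-2, with 2.02%, was the lowest of the 18 libraries.

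**Figure D5:**
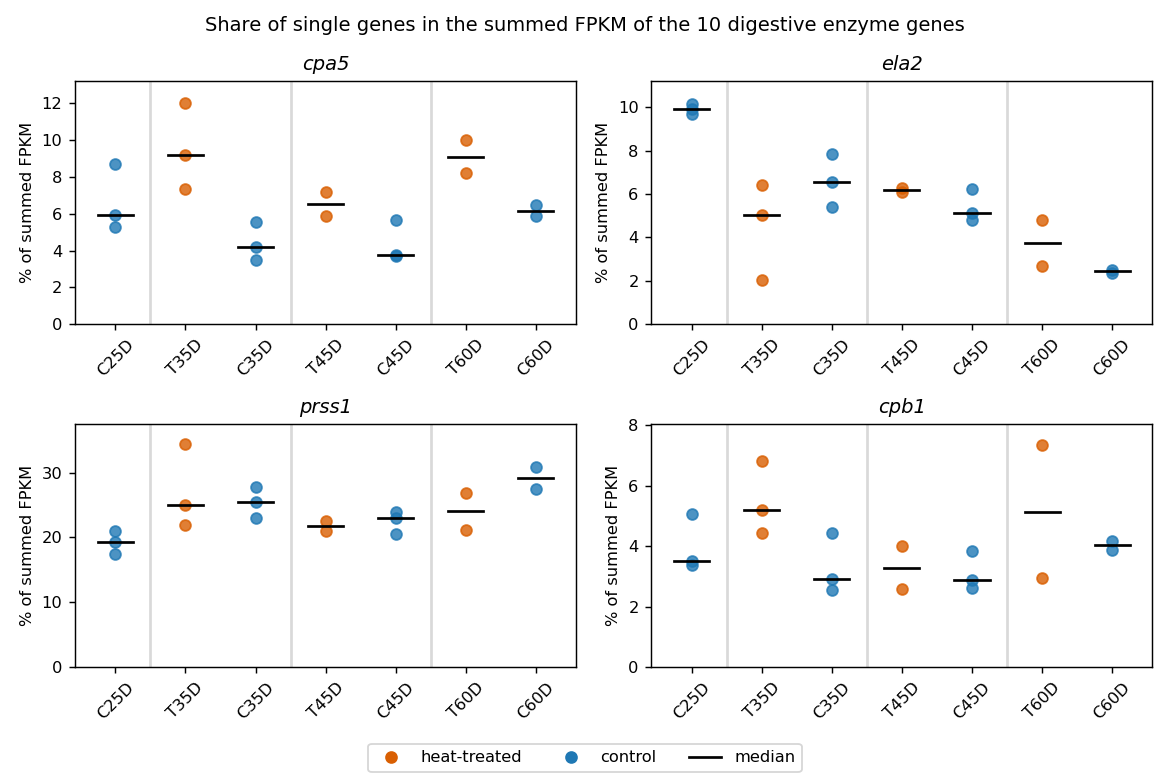
Share of cpa5, ela2, prss1 and cpb1 in the summed FPKM of the 10 genes (%), for the 18 libraries with more than 1000 counts of these genes, by group, with heat-treated libraries in orange, controls in blue and the median as a bar. cpa5 lies higher in heat-treated than in control libraries of the same age, ela2 lies at 9.68 to 10.2% in C25D and at 2.37 to 2.49% in C60D, and prss1 and cpb1 overlap at 35 dpf. The C60D points are C60D-2 and its blend C60D-3.

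Another amylase gene gave a contrast by age. amy2al2, annotated as amylase, stood at 1.201 to 2.08 times amy2a in C25D and at 1.97 to 3.12 times in C35D. It was at 0.322 to 0.933 times amy2a in C45D and 0.349 to 0.444 times in C60D-2 and its blend C60D-3. In heat-treated fish the ratio was 0.598 to 3.45 in T35D, 0.466 to 0.563 in T45D and 0.199 to 0.809 in T60D. The older libraries of both treatments thus lay below every C25D and C35D library.

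Over the 21 libraries the 10 genes varied almost as a unit. Pearson's r of log2 CPM between members was between 0.954 and 0.997 for the 45 pairs, with a median of 0.978, and between 0.965 and 0.998 for deviations from the group means. The libraries near 0 set much of this range, and genes of a library share its depth and tissue content. The mean of the 10 was correlated with 22391 genes, the 10 included. Outside the 10, the most like it were ela3l (r = 0.991), an elastase, and cela1.6 (0.988), another. Next came ctrl (0.987), a chymotrypsin-like protease, and c6ast4 (0.987), an astacin-type protease. cela1.5, ctrb.3, cel.2, cel.1, si:ch211-240l19.7 and cela1.2 made up the first 10, down to an r of 0.982. All but si:ch211-240l19.7 were in the list of other exocrine genes.

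Of the 24 other exocrine genes, 18 had an r above 0.9, and the median was 0.957. amy2al1 (0.51), prss60.1 (0.58) and prss60.2 (-0.02) were lowest. Outside the exocrine lists, r was 0.969 for lgals2b, a galectin of the gut, 0.928 for fabp6, 0.917 for ptf1a, 0.891 for fabp2 and 0.889 for ins, the insulin of the endocrine pancreas. By list, the median r was 0.853 for 32 intestinal genes, 0.825 for 18 liver genes and 0.569 for 14 endocrine genes. The 11 acinar regulator and secretion genes, among which ptf1a was highest, had a median r of 0.08 and a lowest of -0.42. The median was 0.473 for 13 feeding signal genes, -0.05 for 17 food restriction genes, -0.11 for 21 fast muscle genes and -0.01 for 19 oocyte genes.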

How the data were processed

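Whole zebrafish RNA was sequenced by the study as 50-base single-end reads on BGISEQ-500. The authors filtered the reads, aligned them with Bowtie2 2.2.5 to the GRCz11 coding genes and deposited RSEM 1.2.12 expected counts, not normalized, together with their FPKM, which correct for gene length and depth. RSEM divides reads shared by paralogs, which affects prss59.1 and prss59.2.

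Groups and replicate numbers came from library names. Expected counts were rounded. Symbols were matched by gene number to RefSeq (GRCz12tu) for 24087 of 26225 genes, and no sequence was used. Each comparison was fitted on 6 libraries with edgeR 4.0.16 (R 4.3.3; TMM, filterByExpr, quasi-likelihood, two-sided), with Benjamini-Hochberg adjustment over all genes tested and a threshold of 0.05. FPKM entered no test. Correlations used log2 CPM (TMM over 21 libraries, prior count 0.5). The fits were also run on simulated counts with planted changes. That simulation held no near-empty or blended library, so it does not measure power or error in these data. Alternatives were DESeq2 1.42.0, other scalings and filters, a fit of all libraries, prss59.1 and prss59.2 summed, a replicate block, and libraries left out. All members were named. Other names were drawn from the 4 genes of each other list with the highest mean FPKM, any past the adjusted threshold, the defining organ markers and the 10 genes of highest r. Not every gene of these sets is named. prss60.1, prss60.2, amy2al1, amy2al2, ptf1a, nr5a2, cckar, fabp6, fbxo32 and genes of other lists called by DESeq2 were named after their values were seen. The members and lists were chosen with earlier results of these data known.

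Same-numbered libraries deviated together, at a correlation of 0.118 to 0.171 in C35D and C25D and of 0.182 to 0.369 in C60D and C45D, so the blocked value is given beside these. In C45D and C60D the third library matched a blend of the first and the second. The correlations there are thus not separate values and cannot show that replicate numbers pair the libraries. In the other comparisons at least 1 pair was below 0.1.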

Additional observations from a re-analysis of the deposited data

How the results depend on the processing

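Of 411 alternative values for single genes in the heat comparisons, 393 kept their direction and side of the threshold, 16 reversed and 2 passed it (prss59.1 and ctrb1 at 35 dpf). In T35D relative to C35D, DESeq2 called 1 member and left-out libraries gave 0 to 1, with a median between -2.02 and -0.76. cpa5 lay between -0.85 and 0.24 and cpb1 between -1.48 and 0.17 with a library left out. In T45D relative to C45D the replicate block turned the median to -0.16, and prss1 to -0.35, prss59.1 to -0.58, prss59.2 to -0.23, ctrb1 to -0.40, cpa1 to -0.21 and ela2l to -0.12. Left-out libraries gave a median between -0.15 and 1.68, with prss1 between -0.29 and 1.52, prss59.1 between -0.59 and 1.29, prss59.2 between -0.22 and 1.70, ctrb1 between -0.38 and 1.55, cpa1 between -0.18 and 1.53 and ela2l between -0.12 and 1.65. In C35D relative to C25D the median was -0.25 by library size alone and -0.27 with the block, and -0.80 to 0.46 with 0 to 1 calls for left-out libraries. In C45D relative to C35D left-out libraries gave -1.24 to 0.082. In C60D relative to C45D the block called 5 members. Of the 10 genes most like the members, 6 remained when deviations from group means were used. The cause of these shifts was not tested.

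The block changed no other call. Replicate numbers did not pair the libraries at 35, 45 and 60 dpf between heat and control, where the lowest correlation of deviations was -0.38, -0.25 and -0.27. A minimum of 10 counts in every library left no member to test at 60 dpf or across ages. The fit without C60D-1 and T60D-2 was chosen after seeing the data, and it still held the blended C60D-3. In T45D-3, T60D-2 and C60D-1 single genes rest on few counts, and 3 counts were worth 0.182 to 0.253 CPM over all libraries.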
